A study of Mus musculus with 17 samples.

Results

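The homeostatic microglia genes described here are 9 genes that mark resting microglia: P2ry12, P2ry13, Gpr34, Cx3cr1, Csf1r, Siglech, Selplg, Tmem119 and Sall1. They were taken by name, 9 of the 26131 genes counted, and their levels were read in microglia and perivascular macrophages from single-nucleus RNA sequencing of the posterior brain of 17 mice. The study delivered an antisense oligonucleotide (ASO) against the nuclear RNA Malat1 and compared how its carriers lowered the target. All 17 mice were female, 2.3 months old and homozygous for a knock-in of the human transferrin receptor (hTfR KI HOM), so the controls carried the altered receptor too. They were dosed 4 times into a vein and sampled 72 hours after the last dose, with a labelled treatment duration of 24 days. The groups were saline (n = 4), the free Malat1 ASO at 2 mg per kg (n = 4), an antibody conjugate called anti-TfR:Malat1 at 50 mg per kg (n = 6) and OTV:Malat1 at 50 mg per kg (n = 3), where OTV, the oligonucleotide transport vehicle, is a carrier engineered to bind the transferrin receptor. Comparisons against saline share the same 4 saline mice.

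Microglia are the resident macrophages of the brain parenchyma, and in the resting state they survey the tissue with moving processes. P2ry12 and P2ry13 are receptors for ADP, and P2ry12 directs the processes towards injured cells. Gpr34 responds to lysophosphatidylserine. Cx3cr1 is the receptor for fractalkine, a ligand made by neurons, and Csf1r is the receptor for Csf1 and Il34 on which microglia depend for survival. Siglech is a lectin of the Siglec family, Selplg encodes the P-selectin ligand, Tmem119 is a transmembrane protein used to tell microglia from other macrophages, and Sall1 is a zinc-finger transcription factor that maintains microglial identity. Perivascular macrophages lie along vessels, belong to the same broad lineage, and are usually recognised by Mrc1 and other scavenger receptor genes.

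In the GENCODE annotation of GRCm38, 2 pairs of the genes are neighbours. P2ry13 (chr3:59207892-59210882, minus strand) and P2ry12 (chr3:59216272-59262871, minus strand) are separated by 5389 bases, and both lie inside Med12l, which is read from the other strand. Tmem119 (chr5:113793729-113800516) and Selplg (chr5:113818536-113832644) are separated by 18019 bases on the minus strand. Of the rest, the positions are Siglech (chr7:55768178-55778925, plus strand), Sall1 (chr8:89027235-89044162, minus strand), Cx3cr1 (chr9:119901616-120069879, minus strand) and Gpr34 (chrX:13632089-13640858, plus strand). RefSeq entries for the stretch before the start site were found for 5 of the 9 genes, with 3 entries for Sall1. Of the 7 stretches of 250 bases, 1 held the letters GAGGAA, the PU box bound by ETS factors such as PU.1, on either strand. The same letters occurred in 23.3% of the 32851 stretches of this length in the table. They lay in P2ry13, with their first base 48 bases before the start. CG dinucleotides numbered 5 in P2ry13, 2 in Siglech and 13 in the outermost Sall1 stretch, where the median of all stretches was 6. Of all stretches, 44.4%, 18.8% and 68.5% held fewer than these, so none of the 3 is extreme. P2ry12 held 3, Cx3cr1 held 4 and the other Sall1 entries held 25 and 30. The P2ry13, Siglech and outermost Sall1 stretches are printed below. They are from GRCm38.p6 at chr3:59210883-59211132 on the minus strand, chr7:55767934-55768177 on the plus strand and chr8:89044163-89044412 on the minus strand, and capitals mark GAGGAA and each CG. The Siglech stretch is printed over 244 bases.

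P2ry13: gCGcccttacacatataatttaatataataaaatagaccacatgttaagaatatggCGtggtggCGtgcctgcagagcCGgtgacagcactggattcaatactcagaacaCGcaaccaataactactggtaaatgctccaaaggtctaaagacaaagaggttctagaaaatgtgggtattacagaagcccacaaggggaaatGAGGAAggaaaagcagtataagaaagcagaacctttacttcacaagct

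Siglech: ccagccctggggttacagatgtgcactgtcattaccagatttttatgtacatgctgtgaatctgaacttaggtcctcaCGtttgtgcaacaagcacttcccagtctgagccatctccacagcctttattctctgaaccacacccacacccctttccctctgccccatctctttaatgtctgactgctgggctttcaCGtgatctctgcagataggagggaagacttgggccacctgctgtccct

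Sall1: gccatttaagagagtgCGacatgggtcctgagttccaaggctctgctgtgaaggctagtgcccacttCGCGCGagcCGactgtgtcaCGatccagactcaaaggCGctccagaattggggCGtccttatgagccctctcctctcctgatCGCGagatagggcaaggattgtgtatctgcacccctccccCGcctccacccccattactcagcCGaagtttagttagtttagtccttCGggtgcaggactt

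A match or its absence only describes these letters.

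The files held 284074 nuclei and 1099241149 UMIs (unique molecular identifiers, each counted once per captured RNA molecule). Of these, 8092 nuclei were microglia and 596 were perivascular macrophages, taken as nuclei that carried the label and also sat in the deposited cluster 11. Each mouse gave 341 to 695 microglia with 306098 to 752126 UMIs, and 22 to 57 perivascular macrophages with 19630 to 63236 UMIs. Median depth was 989 UMIs in a microglial nucleus, 925 in a macrophage nucleus and 4845 in a neuronal nucleus. The macrophage values therefore rest on few molecules. Levels are given as CPM, the UMIs of a gene scaled to a total of 1000000 UMIs of the class in that mouse. They are not corrected for gene length, so they are compared between classes and mice and not between genes. Where genes of a list are ranked by CPM below, the rank only chose which genes to name. Sums of 6 neuronal marker genes reached 1281 to 2899 CPM in microglia and 870 to 2904 CPM in the macrophages, which shows RNA of other cells in both classes. Every pair of mice shared 50 to 110 cell barcodes, and no 2 nuclei with the same barcode also had the same totals.

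All 9 genes were higher in microglia than in any other class when the 17 mice were pooled. P2ry12 stood at 1314 CPM in microglia, 537 in perivascular macrophages, 41.2 in neurons, 38.8 in astrocytes, 13.98 in vascular nuclei and 4.79 in oligodendrocytes. Siglech was more restricted, at 1176 CPM in microglia, 201 in macrophages, 9.12 in astrocytes and 0.368 in neurons. Csf1r stood at 795 CPM in microglia and 601 in macrophages and did not exceed 8.49 in any other class. Sall1 stood at 239 CPM in microglia, 23.6 in oligodendrocytes, 17.8 in astrocytes, 16.8 in macrophages and 15.9 in vascular nuclei. For Sall1 the macrophage mean of 17.3 ± 22.2 CPM (SD, n = 17) did not differ beyond its spread from the 23.5 ± 4.5 CPM of oligodendrocytes or the 18.2 ± 7.3 CPM of astrocytes. The classes were drawn from the same counts, so these orders are a description.

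**Figure D1:**
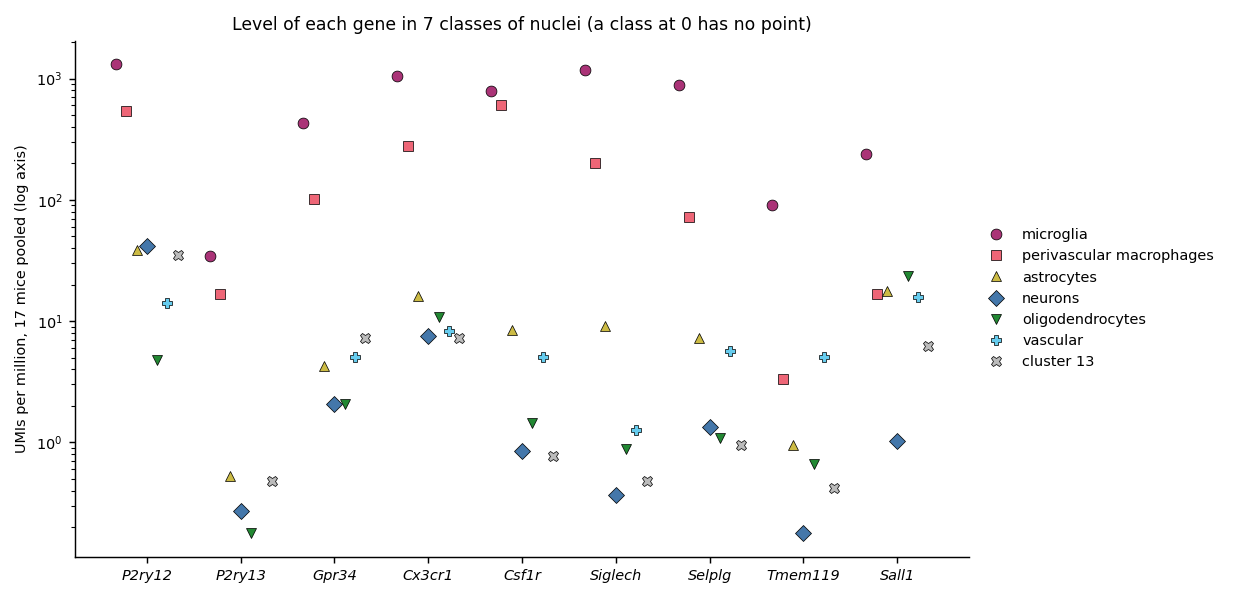
CPM of each gene (vertical axis, log scale) in 7 classes of nuclei, all 17 mice pooled and 1 symbol per class. Microglia are highest for all 9 genes, perivascular macrophages come next for every gene except Tmem119 and Sall1, and P2ry12 is 41.2 CPM in neurons.

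P2ry12 in neurons was set beside Med12l, the gene it lies in. Across the 11 neuronal clusters P2ry12 ranged from 31.2 to 53.2 CPM and Med12l from 181 to 302 CPM, with both highest in cluster 9. Pearson's r between them was 0.78 over the 11 clusters, which share their libraries. Their lowest clusters differed. P2ry12 was lowest in cluster 16, where Med12l stood at 238 CPM, and Med12l was lowest in cluster 7, where P2ry12 stood at 34.8 CPM. P2ry13, which also lies inside Med12l, stood at 0.271 CPM in neurons. Cx3cr1 never exceeded 8.75 CPM in those clusters. The use of strand in counting is not given in the sources used here. Reads of Med12l and P2ry12 in neurons therefore cannot be told apart. In microglia Med12l itself stood at 425 ± 72 CPM (SD, n = 17).

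Among 8092 microglial nuclei, 27 had no UMI of any of the 9 genes, and the median nucleus had UMIs of 4. After each nucleus was thinned to 500 UMIs, which left out 0 nuclei of either macrophage class, P2ry12 was detected in 46.4% ± 4.9 of microglia (SD, n = 17 mice), Siglech in 43.9% ± 3.0, Cx3cr1 in 40.3% ± 2.3, Selplg in 35.5% ± 3.0 and Csf1r in 32.9% ± 2.5. Gpr34 was detected in 19.0% ± 1.7, Sall1 in 10.8% ± 2.0, Tmem119 in 4.52% ± 0.73 and P2ry13 in 1.64% ± 0.55. The unthinned shares were 68.1% for P2ry12 and 8.88% for Tmem119. In astrocytes, with a median depth of 1816 UMIs, the thinned shares were 1.79% for P2ry12, 0.272% for Siglech and 0.0390% for Tmem119. Each microglial share therefore stood above the astrocyte share of the same gene. Even so, a nucleus without a Tmem119 or P2ry13 UMI was the usual case in microglia.

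The same molecules were also found in nuclei that carried other labels but clustered with microglia. The 1284 nuclei labelled as neurons in cluster 11 held 2835 CPM of the 9 genes together, against 6024 CPM in the microglia proper, and 1709 CPM of the neuronal RNA Meg3, against 572 CPM. These nuclei were kept out of the microglia. The 352 nuclei labelled as microglia in cluster 18 held 3209 CPM of the 9 genes, and 80.1% of them were called doublets in the deposited table, so they were kept out too.

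The 8 other genes with the class pattern most like that of the set were Tmem273, Abi3, Cysltr1, Cd300c2, Pik3cg, Rhoh, Gm47754 and Slc11a1, with Pearson's r from 0.9957 to 0.9969 against the mean profile over 20 clusters pooled from the same libraries. Genes lower in this order came close, such as Fcrls at 0.9952 and Spi1 at 0.9949, so the 8 do not stand apart. Within the set, Csf1r had an r of 0.996 and Tmem119 and Cx3cr1 of 0.994. Each member is itself part of the mean profile, so its r is in part circular. P2ry12 and Sall1 had the lowest r, 0.832 and 0.795. UMIs counted as P2ry12 were also found in neuronal clusters and those of Sall1 in oligodendrocyte clusters. The reason for the lower r was not tested.

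Ligands of these receptors, and Tgfb1, were read in the same classes. Cx3cl1, fractalkine, was highest in neurons at 101 CPM and stood at 30.7 CPM in microglia. Csf1 was highest in oligodendrocytes at 97.8 CPM, and Il34 in vascular nuclei at 327 CPM with 22.4 CPM in neurons. Tgfb1, the growth factor on which the homeostatic state depends, was highest in microglia at 203 CPM and stood at 148 CPM in perivascular macrophages. The ligand of Selplg, Selp, did not exceed 0.119 CPM in any class.

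Between the 17 mice, the summed level of the 9 genes in microglia had a coefficient of variation of 5.68%. A sum of weakly correlated genes varies less than its parts by construction, so this value is not set against those of single genes. P2ry12 varied by 14.4% where counting error alone gave 4.07%, Selplg by 11.03% against 4.94% and Sall1 by 19.3% against 9.56%. Tmem119 varied by 15.9% where counting error gave 15.4%, so its spread between mice was close to that of counting. P2ry13 rested on 285 UMIs in all, 1 to 29 per mouse, and varied by 33.1% against 25.5% from counting. Over the 36 pairs of genes, the correlation across the 17 mice had a median r of 0.16, from -0.47 for Csf1r with P2ry13 to 0.71 for P2ry12 with Gpr34, the points sharing libraries, depth and a fixed total. With batch means subtracted the median was 0.27.

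The first question was whether Malat1 itself fell in these classes, which checks the labels. In microglia Malat1 stood at 60937, 51039, 51462 and 37225 CPM in saline mice and at 36978, 34073 and 31248 CPM in OTV:Malat1 mice. Every OTV:Malat1 mouse was below every saline mouse. After edgeR's scaling, 5.09% of all genes tested separated these groups without overlap, in either direction. The log2 difference was -0.59 (SE 0.12), with an unadjusted p of 3.69e-05 by edgeR's quasi-likelihood test, the smallest of 8685 genes. The adjusted p was 0.320 by Benjamini-Hochberg over those genes. With batch in the model the log2 difference was -0.55 with an adjusted p of 0.00306 by the same test, so the call depended on that term. The call also depended on single saline mice. Without replicate 4 the log2 difference was -0.71, with an adjusted p of 0.00321 by edgeR. Without replicate 1 it was -0.47, with an unadjusted p of 0.000456 and an adjusted p of 0.999 by edgeR. In perivascular macrophages the log2 difference was -0.65, with an unadjusted p of 0.000512 by edgeR, the smallest of 964 genes. The adjusted p there was 0.474 by edgeR, and 0.00232 with batch in the model. Malat1 was lower in 3 of 3 shared batches in both classes, as it must be where the groups do not overlap in either. For OTV:Malat1 against saline each shared batch held 1 mouse of each group. How many of all genes had the same sign in every shared batch was not counted, here or for the genes below. Malat1 against saline was -0.18 under anti-TfR:Malat1 and 0.01 under the free ASO in microglia, with neither called by edgeR (adjusted p = 1.000 for both). These values depended on the same saline mice, at -0.06 and 0.13 without replicate 1 and at -0.30 and -0.11 without replicate 4, in the same order of groups and again uncalled.

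None of the 9 genes was called in microglia in any of the 4 comparisons by edgeR at an adjusted p under 0.05, and none had an unadjusted p under 0.05. In 6 alternative fits 1 of the 9 did, each time Selplg, Tmem119 or Siglech, with adjusted p of 0.760 or above. Called genes made up 0% of the 8685 tested in each comparison by edgeR and by DESeq2. Genes with an unadjusted p under 0.05 by edgeR made up 2.27% (197 genes) for the free ASO against saline, 2.86% (248) for anti-TfR:Malat1 against saline, 4.55% (395) for OTV:Malat1 against saline and 3.87% (336) for OTV:Malat1 against anti-TfR:Malat1. DESeq2 gave 95, 137, 206 and 162 such genes in the same order, again with none of the 9. For OTV:Malat1 against saline, 4 of the 9 genes were fitted above 0 and 5 below, with a median log2 difference of -0.10 where the median of all genes was 0.00. For anti-TfR:Malat1 against saline 3 were above and 6 below, with a median of -0.03, and for the free ASO 6 were above and 3 below, with a median of 0.04.

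**Figure D2:**
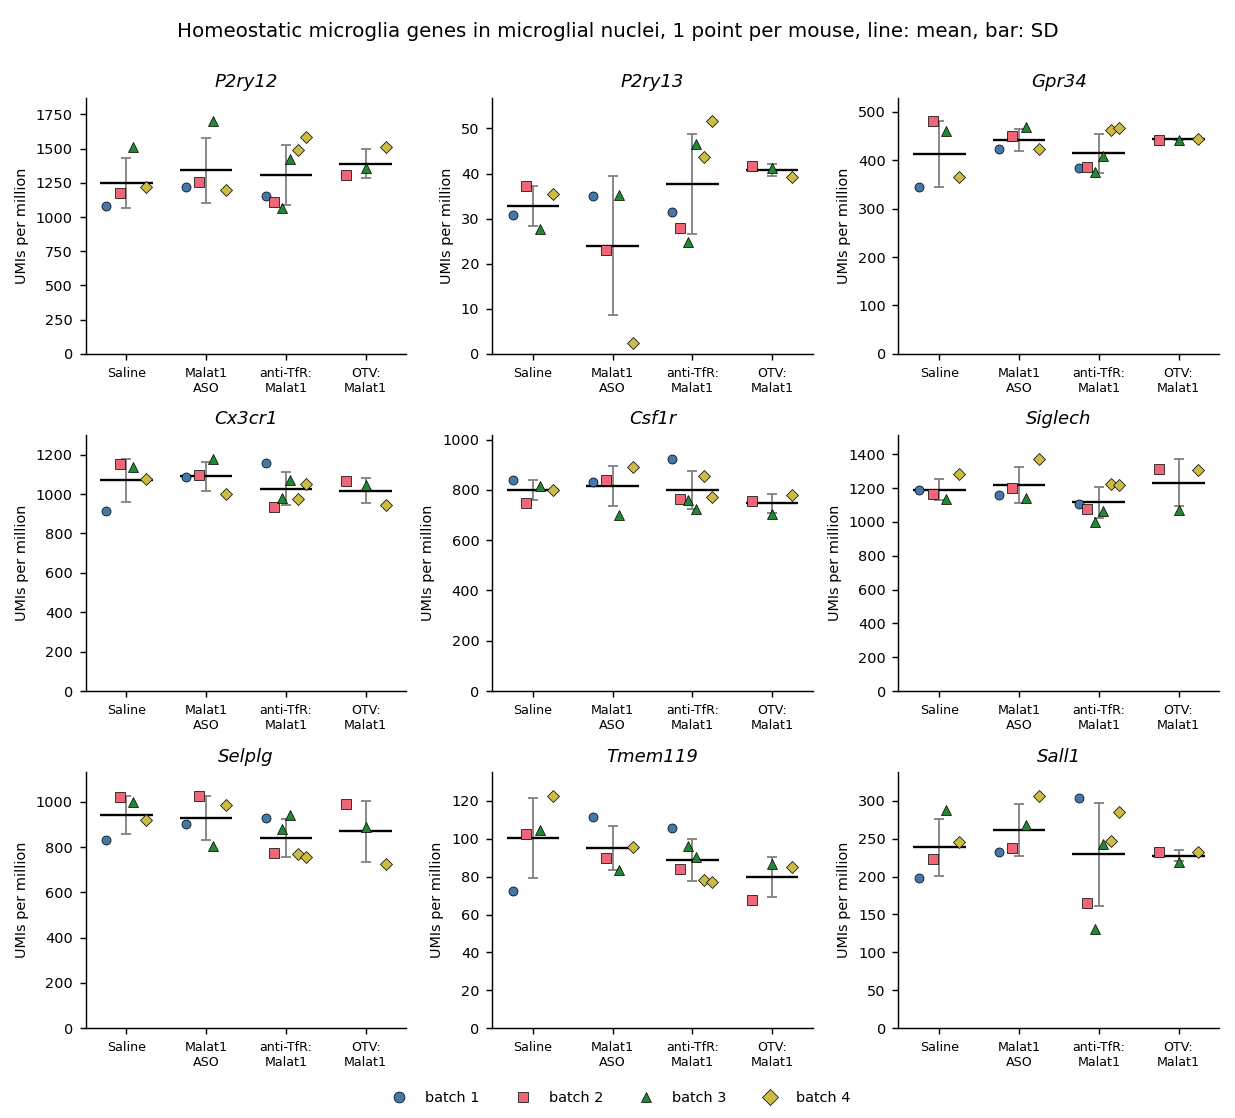
CPM (vertical axis) of each of the 9 genes in microglia for every mouse, by treatment (horizontal axis). Symbols give the batch, lines the group mean and bars the SD. The groups overlap for every gene in every comparison except P2ry13 under OTV:Malat1 against saline, at 39.2 to 41.7 CPM against 27.7 to 37.2 CPM.

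Among the purinergic receptors, the level of P2ry12 was 1084, 1177, 1515 and 1219 CPM in saline mice, 1221, 1255, 1698 and 1194 CPM under the free ASO, and 1305, 1358 and 1509 CPM under OTV:Malat1. Under anti-TfR:Malat1 it ran from 1068 to 1582 CPM with a median of 1288. Med12l was higher under OTV:Malat1 than in saline mice in 3 of 3 shared batches too, by log2 differences of 0.07 to 0.37, while P2ry12 was higher in 2 of 3. The P2ry12 groups overlapped throughout, and the highest saline mouse and the highest free ASO mouse were both in batch 3. The log2 difference of P2ry12 for OTV:Malat1 against saline was 0.12, with a 95% interval from -0.16 to 0.41 and an adjusted p of 0.975 by edgeR. It ran from 0.06 in nuclei of 1000 UMIs or more to 0.22 without saline replicate 3.

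P2ry13, the neighbouring ADP receptor, stood at 30.7, 37.2, 27.7 and 35.5 CPM in saline mice and at 41.7, 41.3 and 39.2 CPM under OTV:Malat1. It was the 1 member of the 9 whose OTV:Malat1 and saline mice did not overlap, by levels after edgeR's scaling, which was also true of 5.09% of all genes tested in that comparison. Non-overlapping genes made up 1.88% for the free ASO against saline, 0.691% for anti-TfR:Malat1 against saline and 1.75% for OTV:Malat1 against anti-TfR:Malat1, with none of the 9 among them. The log2 difference of P2ry13 for OTV:Malat1 against saline was 0.27 with an interval from -0.46 to 1.00, the widest of the set, and an adjusted p of 0.975 by edgeR. The gene was higher within each of the 3 batches that held both groups, as the lack of overlap requires. The log2 differences there were 0.14 to 0.58. Under the free ASO the gene stood at 35.0, 23.0, 35.3 and 2.51 CPM, where the last value was 1 UMI with an exact Poisson 95% interval from 0.0636 to 14.01 CPM that covers counting error only. Gpr34 stood at 442 to 444 CPM in the 3 OTV:Malat1 mice and at 344 to 480 CPM in saline mice, and its interval against saline ran from -0.18 to 0.31. Its log2 difference of 0.06 ran from -0.04 in nuclei of 1000 UMIs or more to 0.15 without saline replicate 2.

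Of the chemokine and growth factor receptors, Cx3cr1 averaged 1070 ± 111 CPM in saline mice (SD, n = 4) and 1018 ± 65 CPM under OTV:Malat1 (SD, n = 3). The log2 difference was -0.10, with an interval from -0.31 to 0.10, and it ran from -0.16 without saline replicate 1 to -0.05 without OTV:Malat1 replicate 3. Csf1r (chr18:61100598-61132149, plus strand) averaged 799 ± 39 CPM in saline mice and 746 ± 37 CPM under OTV:Malat1, a log2 difference of -0.14 with an interval from -0.35 to 0.08, and of -0.08 without OTV:Malat1 replicate 2. Both intervals include 0, where that of Malat1 ran from -0.84 to -0.35. Cx3cr1 was lower under OTV:Malat1 in each of the 3 shared batches, by log2 differences of -0.19 to -0.11, while Csf1r was lower in 2 of the 3.

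Among the surface proteins, Tmem119 showed the smallest p of the set for OTV:Malat1 against saline. It stood at 72.2, 102, 104 and 123 CPM in saline mice and at 67.7, 86.7 and 84.9 CPM under OTV:Malat1. The groups overlapped through 1 saline mouse. The log2 difference was -0.34 with an interval from -0.74 to 0.06, an unadjusted p of 0.0893 and an adjusted p of 0.975 by edgeR, and it was negative in 3 of 3 shared batches. Over the alternatives it ran from -0.47 without saline replicate 1 (unadjusted p 0.0229 by edgeR) to -0.15 in nuclei of 1000 UMIs or more, with adjusted p of 0.871 or above. Tmem119 averaged 95.1 ± 11.8 CPM under the free ASO (SD, n = 4) and 88.7 ± 11.03 CPM under anti-TfR:Malat1 (SD, n = 6).

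Selplg had the smallest p for anti-TfR:Malat1 against saline. It stood at 832, 1020, 997 and 919 CPM in saline mice and from 757 to 943 CPM, with a median of 827, under anti-TfR:Malat1, so the groups overlapped. The log2 difference was -0.17 with an interval from -0.37 to 0.03, an unadjusted p of 0.0876 and an adjusted p of 1.000 by edgeR. Over the alternatives, with unadjusted p of 0.0301 or above by edgeR or DESeq2, it ran from -0.23 to -0.11. The lowest was in nuclei of 1000 UMIs or more and the highest with replicate number in the model. For OTV:Malat1 against saline the log2 difference was -0.15, from -0.38 to 0.09. It ran from -0.27 without OTV:Malat1 replicate 1 (unadjusted p 0.0433 by edgeR) to -0.04 without OTV:Malat1 replicate 3. Selplg was lower under OTV:Malat1 in 3 of 3 shared batches, each with 1 mouse per group, by log2 differences of -0.34 to -0.04. Siglech gave 0.01 for the same comparison, from -0.20 to 0.23, and turned from -0.05 without OTV:Malat1 replicate 1 to 0.12 without OTV:Malat1 replicate 2. It gave 0.11 for OTV:Malat1 against anti-TfR:Malat1, from -0.09 to 0.31, where it was higher in 3 of 3 shared batches. The last of these was 0.22 without OTV:Malat1 replicate 2 (unadjusted p 0.0405 by edgeR) and 0.05 without OTV:Malat1 replicate 1. Against saline, Siglech was lower under anti-TfR:Malat1 in 4 of 4 shared batches, by log2 differences of -0.14 to -0.07.

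Sall1, the transcription factor, stood at 232, 219 and 232 CPM under OTV:Malat1 and from 198 to 288 CPM in saline mice, a log2 difference of -0.10 with an interval from -0.50 to 0.31. It ran from -0.17 without saline replicate 1 to 0.0017 without saline replicate 3. Its widest spread was in the anti-TfR:Malat1 mice, from 130 to 304 CPM. For the free ASO against saline the log2 difference was 0.14, from -0.22 to 0.50. It ran from 0.06 without free ASO replicate 4 to 0.27 in nuclei of 1000 UMIs or more. None of these differences exceeded the spread between mice.

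**Figure D3:**
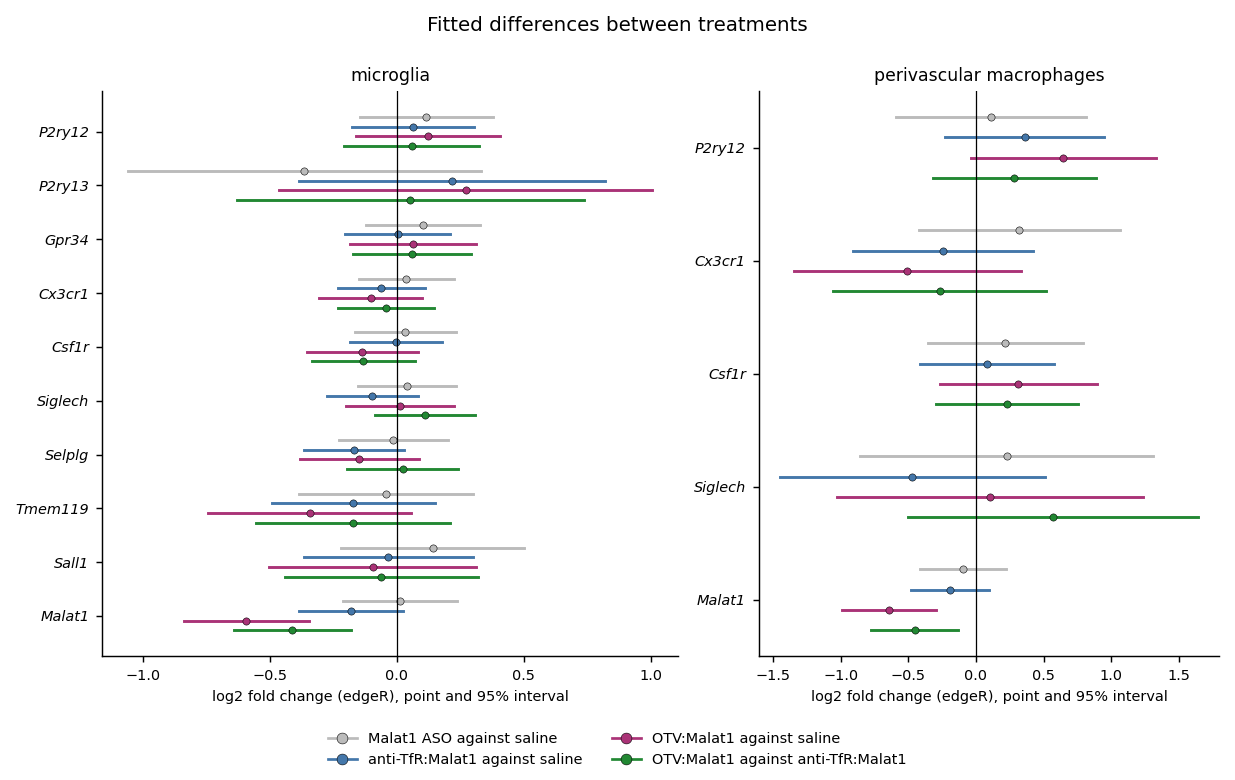
Log2 fold change (horizontal axis) of each tested gene and of Malat1 in microglia and perivascular macrophages for 4 comparisons, with points as edgeR estimates and lines as 95% intervals. Every interval of the 9 genes includes 0, and that of Malat1 for OTV:Malat1 against saline lies below 0 in both classes.

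Other genes of the microglial programme were read from the same model. Of 26 other identity genes, none was called in any of the 4 comparisons by edgeR, and for OTV:Malat1 against saline 8 were fitted above 0 and 18 below, with a median log2 difference of -0.03. The 3 with the highest level in microglia were the TGF-beta receptor Tgfbr1 at 2586 ± 287 CPM, the phosphatase gene Inpp5d at 2313 ± 109 CPM and the phagocytic receptor Mertk at 2097 ± 195 CPM (SD, n = 17). Of 10 transcription regulators, with Mef2a, Ikzf1 and Runx1 the highest, 6 were above 0 and 4 below, with a median of 0.06. Of 6 tested genes of nucleotide handling, led by the ectonucleotidase Entpd1, P2ry6 and Kcnk13, 2 were above and 4 below, with a median of -0.03.

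Among genes of activated microglia, the 3 with the highest level were Cd9 at 183 ± 55 CPM, Ctsb at 178 ± 37 CPM and Apoe at 171 ± 29 CPM (SD, n = 17). Of 15 such genes counted, 7 passed the filter on low counts. For OTV:Malat1 against saline 4 of the 7 were fitted above 0 and 3 below, with a median of 0.17, and none was called. Cd9, a tetraspanin, had a log2 difference of 0.62 with an unadjusted p of 0.0175 and an adjusted p of 0.975 by edgeR. Cd9 is also made by oligodendrocytes, and the summed level of 6 oligodendrocyte markers in microglia was 457 to 1339 CPM under OTV:Malat1 and 316 to 719 CPM in saline mice. The highest of these sums was in OTV:Malat1 replicate 2. The part of that RNA in the Cd9 value was not tested.

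More genes were called for batch, a number that the deposited table gives each mouse with no further explanation. With treatment in the model, edgeR called 255 of 8685 genes for batch in microglia, 2.94%, and none of the 9 genes was among them. Siglech averaged 1152 ± 40 CPM in batch 1 (SD, n = 3), 1189 ± 100 CPM in batch 2 (SD, n = 4), 1082 ± 59 CPM in batch 3 (SD, n = 5) and 1283 ± 64 CPM in batch 4 (SD, n = 5). Its adjusted p for batch was 0.0863 by edgeR, with an unadjusted p of 0.00439, and 1480 of the 8685 genes had an unadjusted p under 0.05. P2ry12 averaged 1152 ± 69, 1212 ± 85, 1413 ± 231 and 1399 ± 179 CPM in the same order. Its adjusted p for batch was 0.213 by edgeR, with an unadjusted p of 0.0257. Siglech and P2ry12 were the 2 of the 9 genes with an unadjusted p for batch under 0.05. OTV:Malat1 had no mouse in batch 1, the batch with the lowest mean P2ry12. The main treatment fit left batch out. With batch in the model, the log2 difference of P2ry12 for OTV:Malat1 against saline was 0.07, where the main fit gave 0.12. Gpr34 gave 0.02 where the main fit gave 0.06, and Csf1r -0.10 where it gave -0.14. Selplg gave -0.16 where it gave -0.15. Of the other identity genes, Tgfbr1 and the complement gene C1qc were called for batch. Tgfbr1 averaged 2993, 2563, 2321 and 2624 CPM and C1qc 228, 237, 258 and 172 CPM in batches 1 to 4. Malat1 and 3 of the 6 neuronal markers, Meg3, Snap25 and Snhg11, were called for batch in microglia too. Meg3 averaged 408, 565, 528 and 755 CPM and Snap25 138, 230, 285 and 232 CPM in those batches. The part of this neuronal RNA in the batch values of Siglech and P2ry12 was not tested.

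In perivascular macrophages, 8 of the 9 genes were lower than in microglia in 17 of 17 mice, and P2ry13 was lower in 13. As a percent of the microglial level of the same mouse, Csf1r stood highest at 75.3% ± 17.2 (SD, n = 17), from 38.5% to 93.9%. P2ry12 followed at 42.0% ± 13.99, Cx3cr1 at 27.8% ± 13.3, Gpr34 at 23.2% ± 17.3 and Siglech at 17.9% ± 8.9. Selplg stood at 8.21% ± 5.77, Sall1 at 7.55% ± 9.44 and Tmem119 at 3.05% ± 9.03. Neighbours in the order from Cx3cr1 to Siglech, and in that from Selplg to Tmem119, differed by less than the SD of either, and the ranges of Siglech and Selplg overlapped. Tmem119 had 2 UMIs among 595645, Sall1 had 10, and they were at 0 in 15 and 9 of the 17 mice. P2ry13 also had 10 UMIs, and its ratio was too uncertain to place.

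**Figure D4:**
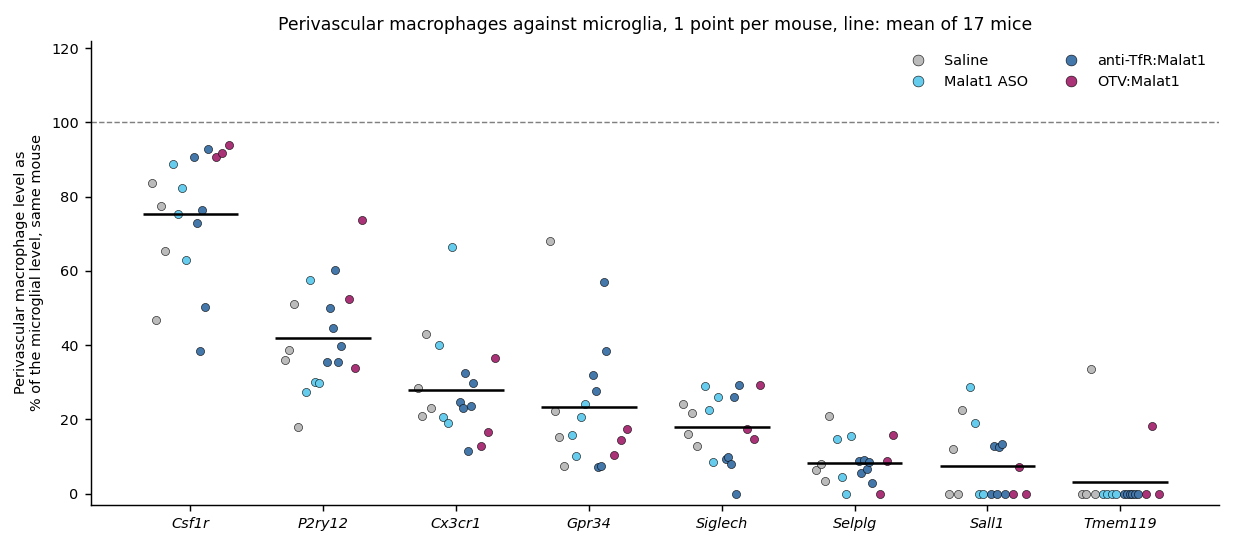
Level in perivascular macrophages as a percent of the microglial level of the same mouse (vertical axis) for 8 genes, 1 point per mouse, coloured by treatment, with lines at the mean of 17 mice. Csf1r lies highest with a mean of 75.3%, and Tmem119 is at 0 in 15 mice. P2ry13 is left out because it had 10 UMIs.

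The macrophage nuclei were also split by their defining markers. In the 534 macrophage nuclei with a UMI of Mrc1 or F13a1, P2ry12 stood at 548 CPM, Csf1r at 619, Cx3cr1 at 265, Siglech at 209, Sall1 at 3.68 and Tmem119 at 0. In the 62 nuclei with neither, Tmem119 stood at 38.9 CPM, Sall1 at 155, Selplg at 272, Cx3cr1 at 389 and Gpr34 at 136. Each of these was above the larger set, where Selplg stood at 53.3 CPM and Gpr34 at 97.4. The other members were below it, with P2ry12 at 427 CPM, Csf1r at 408, Siglech at 117 and P2ry13 at 0, against 18.4. Tmem119 and Sall1 rested on no more than 2 and 10 UMIs. Selplg, Gpr34 and Siglech had 43, 60 and 120 UMIs in the whole class, so their values in the 62 nuclei rest on few. The 62 nuclei were also shallower, with a median of 779 UMIs against 947.5. Lacking a UMI of Mrc1 or F13a1 depends in part on depth. Whether those 62 nuclei are microglia by another label was not tested. After thinning to 500 UMIs, P2ry12 was detected in 22.6% ± 7.2 of macrophage nuclei, Csf1r in 24.8% ± 5.0 and Tmem119 in 0.166% ± 0.486 (SD, n = 17 mice). The first of these stood above the astrocyte share given earlier, while that of Sall1, at 1.07%, was close to the 0.909% of astrocytes.

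Treatment comparisons in the macrophages could be made for 4 of the 9 genes, P2ry12, Cx3cr1, Csf1r and Siglech, among 964 genes that passed the filter on low counts. None of the 4 was called in any comparison by edgeR, and called genes were 0% of those tested in each by edgeR and by DESeq2. None had an unadjusted p under 0.05, which 4.15%, 4.05%, 3.63% and 4.46% of all genes had for the free ASO, anti-TfR:Malat1 and OTV:Malat1 against saline and for OTV:Malat1 against anti-TfR:Malat1 (40, 39, 35 and 43 genes, and 28, 25, 18 and 22 by DESeq2). No tested member had non-overlapping groups, as 4.05%, 1.24%, 5.81% and 2.39% of all genes did.

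P2ry12 gave the largest difference. It stood at 390, 455, 772 and 220 CPM in saline macrophages and at 684, 459 and 1114 CPM under OTV:Malat1. The groups overlapped, with 73 UMIs behind the OTV:Malat1 values and 62 behind those of saline. The log2 difference was 0.64 with an interval from -0.04 to 1.33, an unadjusted p of 0.0636 and an adjusted p of 0.981 by edgeR. This value rested on single mice: it was 1.02 without saline replicate 3 (unadjusted p 0.00660, adjusted p 0.956 by edgeR), 1.00 without OTV:Malat1 replicate 2 (adjusted p 0.964), 0.42 without saline replicate 4 (adjusted p 0.988) and 0.29 without OTV:Malat1 replicate 3 (adjusted p 0.995). For anti-TfR:Malat1 against saline P2ry12 gave 0.36, from 0.14 without saline replicate 4 to 0.71 without saline replicate 3 (unadjusted p 0.0291 by edgeR), with adjusted p of 0.820 or above in every alternative run. For OTV:Malat1 against saline within the 3 shared batches it ran from -0.75 to 2.34, higher in 2 and lower in 1. With batch in the model that difference was 0.51 (unadjusted p 0.135 by edgeR). With 30 or more nuclei per mouse it was 0.04, from a fit in which OTV:Malat1 kept 1 mouse. Med12l, the gene P2ry12 lies in, averaged 187 ± 90 CPM under OTV:Malat1 and 126 ± 44 CPM in saline macrophages, where P2ry12 averaged 752 ± 333 CPM and 459 ± 231 CPM. Cx3cr1 gave -0.51, from -1.35 to 0.33, Csf1r 0.31, from -0.27 to 0.89, and Siglech 0.10, from -1.03 to 1.23. These too rested on single mice. Cx3cr1 ran from -0.84 without OTV:Malat1 replicate 3 to -0.19 without saline replicate 3, and Csf1r from 0.14 without saline replicate 2 to 0.47 without saline replicate 1. Csf1r was higher than in saline in 3 of 3 shared batches, each with 1 mouse per group, by log2 differences of 0.04 to 0.97. Cx3cr1 was lower in 2 of 3 and Siglech higher in 2 of 3. Siglech turned from -0.25 without OTV:Malat1 replicate 3 to 0.46 without OTV:Malat1 replicate 2. Each interval of the 4 genes is wider than that of the same gene in microglia.

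**Figure D5:**
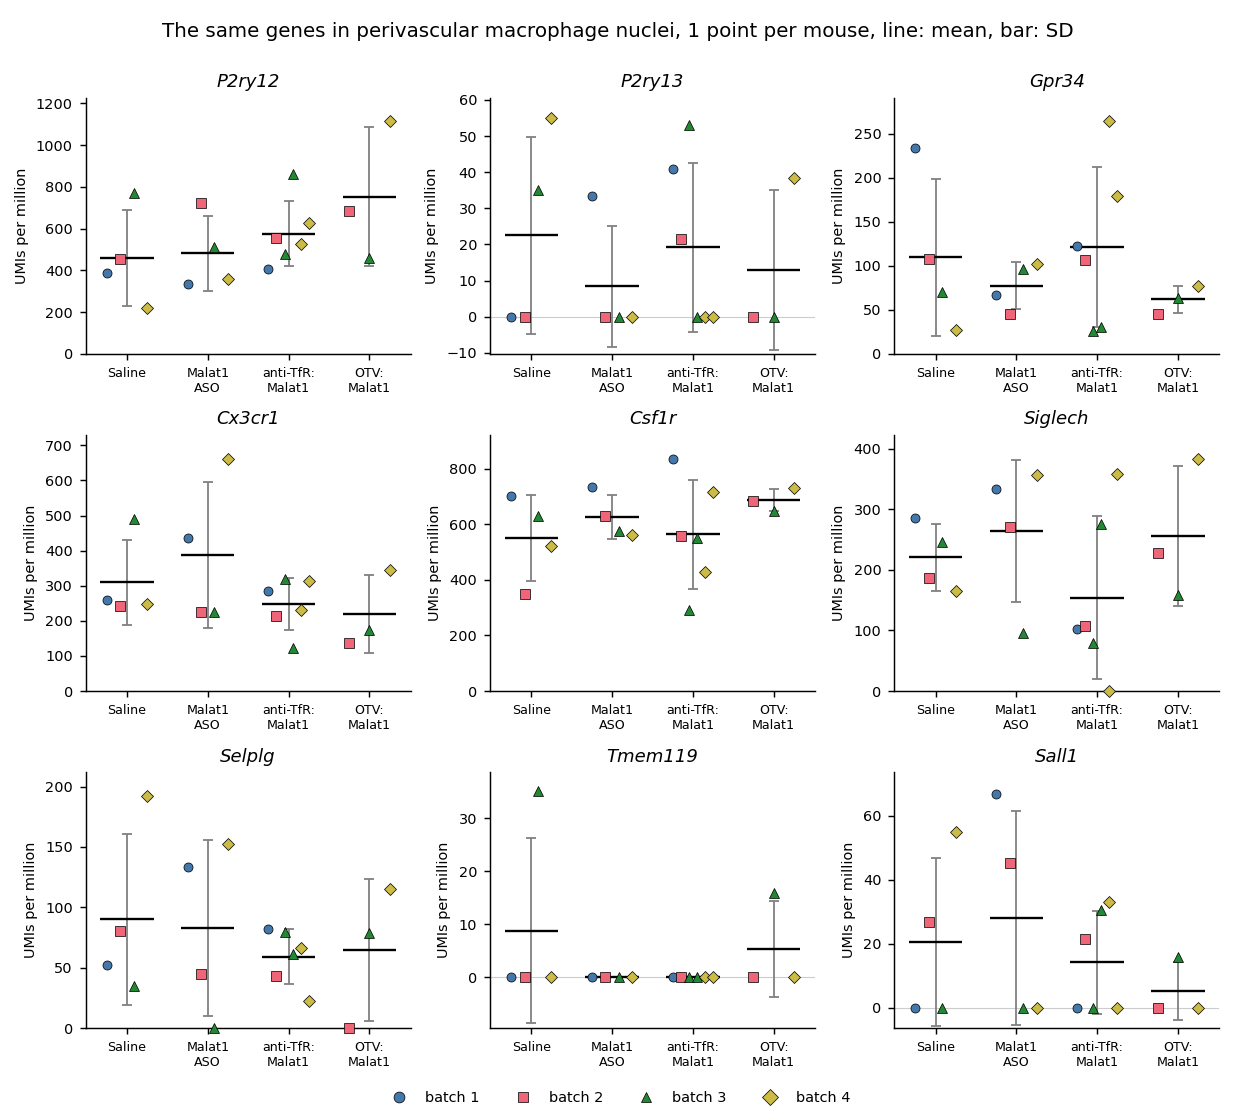
CPM (vertical axis) of the 9 genes in perivascular macrophages for every mouse, by treatment (horizontal axis), with batch symbols, group means and SD bars, which may pass below 0. P2ry12 under OTV:Malat1 runs from 459 to 1114 CPM and overlaps saline at 220 to 772 CPM.

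Batch gave 14 called genes in the macrophages, 1.45% of 964 by edgeR. None of the 4 tested members was called, and none had an unadjusted p under 0.05, which 8.30% of all genes had. The smallest unadjusted p among the 4 was 0.212 by edgeR, for Csf1r.

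The share of nuclei that were microglia was 3.17% in saline mice, 3.14% under the free ASO, 2.70% under anti-TfR:Malat1 and 2.38% under OTV:Malat1. OTV:Malat1 against saline gave a two-sided exact permutation p of 0.114, adjusted to 0.457 over 8 tests, where 0.0571 is the smallest p that 3 against 4 mice allow. The macrophages made up 0.210%, 0.162%, 0.241% and 0.214% of nuclei in those groups, with adjusted exact permutation p of 0.457 or above. The levels above are shares of a class's own RNA and do not depend on how many nuclei of it were caught.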

How the data were processed

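The deposited files held raw UMI counts per gene and nucleus, a table of nucleus labels and barcodes. The submitters' processing notes name Cell Ranger 6.0.1, Seurat 4 and the build mm10. Settings, and whether introns or strand were used in counting, are not given in the sources used here. Nuclei were FACS-sorted and loaded on the 10x Chromium, per the labels' protocols. Labels, clusters, doublet calls and batch were the authors', and 11 other columns of their table were not used. Doublets were kept in the main fit. A microglia or perivascular macrophage nucleus carried that label and sat in cluster 11.

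Counts were summed per mouse and class, each mouse with 20 or more nuclei. edgeR 4.0.16 (R 4.3.3) fitted quasi-likelihood models to all 17 mice, with its default filter on low counts, TMM scaling and treatment as the factor. The Benjamini-Hochberg adjustment ran across every tested gene of a class, and adjusted p-values under 0.05 were called. Batch was tested with treatment in the model. DESeq2 1.42.0 was an alternative. The model was tested on counts simulated for OTV:Malat1 against saline. In each class 100 genes were given log2 changes of 1 and another 100 log2 changes of 2. The model recovered 56% of log2 changes of 1 in microglia and 52% in macrophages, and 88% and 95% of log2 changes of 2. It made 11 and 6 false calls among 8685 and 964 genes. The adjusted threshold loosens as more genes change. These shares can therefore overstate recovery in the real comparisons, where the main fit called no gene. Each sample was taken as 1 mouse, and p-values measure the spread between these samples.

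All 9 members were named, and from each other list the genes called, up to 4, or else the 3 highest in microglia. The members and lists were chosen with earlier results of these data known. The alternatives were other scaling, filters, nucleus sets, blocks, DESeq2 and leaving out each mouse. Python 3.11.15 was used for the descriptions.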

Additional observations from a re-analysis of the deposited data

Results flagged for a closer look

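In the free ASO group, P2ry12 in microglia of replicate 3 was 1698.4 CPM while the other 3 mice lay between 1194 and 1255 CPM, so its gap to the nearest mouse took up most of the group's range. In the saline group, Cx3cr1 in perivascular macrophages of replicate 3 was 491.2 CPM, from 14 UMIs, while the other 3 mice lay between 241 and 260 CPM. These were 2 of 39 sets of values examined for a mouse far from the others, and chance flags about 1 in 20. Both mice were in batch 3. Without any 1 mouse, no member was called in either class by edgeR.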

How the results depend on the processing

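Across 996 alternative values of the 52 log2 differences of members, none passed the threshold (smallest adjusted p 0.760 by edgeR or DESeq2). Direction changed in 79 and 26 moved by over 1 SE, all between uncalled values. The 996 include values from the macrophage fits described below in which a group kept 1 mouse, which say nothing about stability. Counts of members called stayed at 0 for treatment and batch under every alternative run, each left-out mouse included.

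Counts of all genes called did change. Without the filter on low counts, microglia gave 3 genes for the free ASO against saline, 1 (Malat1) for OTV:Malat1 against saline and 2 (Malat1 among them) for OTV:Malat1 against anti-TfR:Malat1, and macrophages gave 1 for OTV:Malat1 against saline. With the batch block, 1 gene was called for OTV:Malat1 against saline in each class. Same-numbered mice deviated together little (median r 0.07, from -0.17 to 0.23, in 21 pairs in microglia, against -0.03 in other pairs). Mice of the same batch had a median r of 0.13 in 27 pairs, against -0.04 in other pairs. A small r cannot decide whether the numbers pair mice, and the main fit did not pair them. With the replicate block, 1 was called in each class too, and it changed no other call. With labels as given, 1 was called in microglia for that comparison. Left-out mice gave 0 to 1 in microglia there, the 1 without saline replicate 4. With 30 or more nuclei per mouse, macrophages gave 1 for OTV:Malat1 against anti-TfR:Malat1, from a fit in which OTV:Malat1 and the free ASO each kept 1 mouse, assumed to vary like the other groups.

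Genes called for batch in microglia numbered 141 by DESeq2, 549 without the filter, 67 in nuclei of 1000 UMIs or more, and 99 to 389 with a mouse left out, lowest without OTV:Malat1 replicate 2, highest without anti-TfR:Malat1 replicate 6, and moved by over 1.5 times also without saline replicates 1, 3 or 4, anti-TfR:Malat1 replicates 3 or 4 or OTV:Malat1 replicate 3. In macrophages they numbered 3 by DESeq2, 9 with relative log expression scaling, 1 with 30 or more nuclei, and 2 to 15 with a mouse left out, lowest without anti-TfR:Malat1 replicate 5. The adjusted p for batch ranged from 0.0656 to 0.542 for Siglech and from 0.0587 to 0.496 for P2ry12 over 25 alternatives. The cause was not tested.

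Differences in the share of nuclei changed sign for microglia under the free ASO against saline without doublets (0.0304 percentage points) and with a mouse left out (-0.273 to 0.238). They did so for microglia under OTV:Malat1 against anti-TfR:Malat1 with the replicate block (0.0601; left-out mice -0.478 to -0.0749). For macrophages the sign changed under OTV:Malat1 against saline within batch (-0.00219) and with a mouse left out (-0.0445 to 0.0329), and under OTV:Malat1 against anti-TfR:Malat1 with a mouse left out (-0.0757 to 0.00173).

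The macrophage fits in nuclei of 1000 UMIs or more were not run except OTV:Malat1 against anti-TfR:Malat1, where OTV:Malat1 kept 1 mouse and the values say nothing about stability, nor was the batch test there, because too few mice had 20 or more such nuclei. Depth limits Tmem119, Sall1, P2ry13, Selplg and Gpr34 in macrophages, which had 2 to 60 UMIs in all.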
